A study of Mus musculus with 12 samples.

Results

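Spp1, Gpnmb, Trem2, Apoe, Lpl, Cd63 and Ctsk are genes that macrophages recruited to fibrotic tissue are known to express. The 7 were followed gene by gene in RNA from sorted alveolar type II (ATII) cells of mouse lungs. They were taken by name, by a rule that uses no measured value, although the names were chosen with earlier results of these data known. Each had a row in every library, so that 7 of 23238 gene symbols are described here. The study asked what the acetyltransferase p300 (Ep300) does in ATII cells during bleomycin-induced lung fibrosis. It compared 4 groups of 3 mice, with 1 library per mouse. By the paper's main text, Con mice were Spc-p300 f/f mice given PBS, and BLM mice were the same genotype given 4 mg/kg bleomycin into the trachea. KO mice were labelled p300 knockout and given PBS, and KOBLM mice were labelled p300 knockout and given 4 mg/kg bleomycin. The floxed p300 alleles have LoxP sites around exon 9. For the sequenced cells, the supplement instead names a mouse strain, with no floxed alleles stated, beside ATII-specific knockout mice. It gives their age as 8 to 10 weeks. Sample titles call Con WT, so whether Con and BLM mice carried floxed alleles is not settled. The labels give 10 mg/kg tamoxifen at 8 weeks of age for every library, without setting any group apart. A supplementary legend describes vehicle or tamoxifen for the mice whose ATII cells were isolated. Deletion was driven by Spc-CreERT2, which is active in ATII cells, so p300 in macrophages was not targeted. Dissociated lung cells were sorted as CD74+ Ep-CAM+ cells, and CD74 is also abundant on macrophages.

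After lung injury, monocytes enter the air spaces and become macrophages that take up lipid and debris and that lie next to fibroblasts in scars. These cells share a programme with lipid-associated macrophages of fat and brain: the receptor Trem2 senses lipids, Apoe and Lpl move and hydrolyse them, Gpnmb, Cd63 and Ctsk belong to the endosome and lysosome, and Spp1 encodes the secreted protein osteopontin. The resident alveolar macrophage uses several of the same genes for surfactant lipid, and Lpl and Ctsk are known in it without injury.

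On the mm10 build (GRCm38), GENCODE places Spp1 at chr5:104435118-104441050, Gpnmb at chr6:49036546-49070929, Trem2 at chr17:48346401-48354147, Lpl at chr8:68880491-68907448, Cd63 at chr10:128900989-128912822 and Ctsk at chr3:95499256-95509362, all on the plus strand. Apoe lies at chr7:19696109-19699188 on the minus strand. All are protein-coding, and the library kit reads the 3′ end of the transcript, so a count does not grow with transcript length. The 250 bases before the start site, from RefSeq on GRCm38.p6, could be read for 6 of the 7 genes, not for Lpl. They are shown for the genes whose promoters held the core letters of a PU.1 site, and for Apoe as the gene with the largest bleomycin difference. PU.1 (Spi1) is the master factor of macrophages. GAGGAAG, searched on both strands, stood upstream of Spp1, Trem2, Cd63 and Ctsk, and in 10.6% of all 32851 promoters of that length. Capitals mark matches to that motif, to AP-1 (TGANTCA), to C/EBP (TTGCNNAA), and, on the given strand alone, to TATAAA:
Spp1 (chr5:104434861-104435110, plus strand): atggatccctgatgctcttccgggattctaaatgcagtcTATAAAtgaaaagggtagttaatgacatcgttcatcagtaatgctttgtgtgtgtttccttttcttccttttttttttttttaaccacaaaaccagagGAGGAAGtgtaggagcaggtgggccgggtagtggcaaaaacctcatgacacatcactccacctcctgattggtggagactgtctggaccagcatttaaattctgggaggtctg
Trem2 (chr17:48346151-48346400, plus strand): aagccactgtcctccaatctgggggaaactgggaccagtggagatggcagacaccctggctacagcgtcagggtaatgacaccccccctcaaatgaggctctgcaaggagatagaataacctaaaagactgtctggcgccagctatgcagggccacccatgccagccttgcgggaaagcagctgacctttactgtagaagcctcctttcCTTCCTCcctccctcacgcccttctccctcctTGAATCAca
Cd63 (chr10:128909095-128909344, plus strand): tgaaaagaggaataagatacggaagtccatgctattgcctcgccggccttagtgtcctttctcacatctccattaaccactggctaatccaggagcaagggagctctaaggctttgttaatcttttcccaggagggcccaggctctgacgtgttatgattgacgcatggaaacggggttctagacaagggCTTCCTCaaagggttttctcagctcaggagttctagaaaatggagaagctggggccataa
Ctsk (chr3:95498960-95499209, plus strand): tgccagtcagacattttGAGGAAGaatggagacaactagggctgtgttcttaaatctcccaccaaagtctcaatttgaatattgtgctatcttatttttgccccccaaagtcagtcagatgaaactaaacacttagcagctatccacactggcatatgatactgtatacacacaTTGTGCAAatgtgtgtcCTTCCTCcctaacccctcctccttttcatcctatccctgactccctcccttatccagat
Apoe (chr7:19699189-19699438, minus strand): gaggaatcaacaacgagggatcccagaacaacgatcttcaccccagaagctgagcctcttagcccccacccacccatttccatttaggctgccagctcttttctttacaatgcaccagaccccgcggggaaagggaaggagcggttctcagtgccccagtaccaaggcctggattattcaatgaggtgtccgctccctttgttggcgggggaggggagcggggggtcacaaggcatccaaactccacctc

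The match lay 113 bases before the start of Spp1, 41 before that of Trem2, 60 before that of Cd63, and 233 and 59 before that of Ctsk. Trem2 also held an AP-1 match 9 bases before its start, a motif found in 6.75% of all promoters, and Ctsk a C/EBP match 76 bases before its start, a motif found in 9.56%. A further promoter of Spp1 held a C/EBP match. TATAAA, found in 7.59% of promoters, stood 211 bases before the start of Spp1, and in another of the 3 listed promoters of Apoe 96 bases before its start. CACGTG, in 6.02% of promoters, and the M-box TCATGTG of MITF, in 3.25%, were found upstream of none of the 6. Gpnmb held none of the motifs searched. These are matches of letters in a short window and not measured binding sites.

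The libraries held 7005005 to 11153154 counts, so the 3 counts taken as the limit of detection correspond to 0.269 to 0.428 CPM (counts scaled by library total). Several libraries stood apart. BLM 3 correlated with BLM 1 and BLM 2 at a Spearman coefficient across genes of 0.473 and 0.478, against 0.693 to 0.889 for all other pairs within a group. It was at 0 counts for 5 of 12 resident alveolar macrophage markers and 6 of 12 monocyte-derived macrophage markers. The library labelled KO 2, from a mouse given PBS, carried 2473 CPM of the monocyte-derived markers, against 691.6 and 626.4 CPM in KO 1 and KO 3 and 651.1 to 723.9 CPM in Con. The library labelled KOBLM 2, from a mouse given bleomycin, carried 621.9 CPM of them, against 1626 and 2379 CPM in KOBLM 1 and KOBLM 3. Ep300 was not lower in the knockout groups, at 134.0 ± 27.1 CPM (SD, n = 3) in KO and 111.9 ± 52.7 CPM in Con, and reads from the 3′ end do not cover exon 9. The paper reports the deletion in isolated ATII cells by qRT-PCR, and that purity was assessed by staining for surfactant protein C. Summed ATII markers, 643.0 to 3644 CPM over the 12 libraries, were below the resident alveolar macrophage markers in 11 of 12. The exception was BLM 3 with 1612 against 720.2 CPM. The ATII sum includes Cd74, which macrophages also carry. Cd74 held 2247 of 2775 CPM in BLM 2, 616.9 of 803.3 CPM in KOBLM 3 and 1574 of 3644 CPM in Con 2. Nkx2-1, a defining ATII gene, had 0 counts in 7 of 12. A gene is said to be called, or to meet the call rule, when edgeR gave it more than a 1.5-fold change and p under 0.05 before adjustment. The labels were kept as given, and an exchange of samples was not tested. Values of the 7 genes are given with all libraries and, where a call or a direction changed, without the library concerned, and the counts of listed genes with their range when each library of a comparison was left out in turn. In such bulk RNA, fewer macrophages and less RNA per macrophage cannot be told apart.

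**Figure D1:**
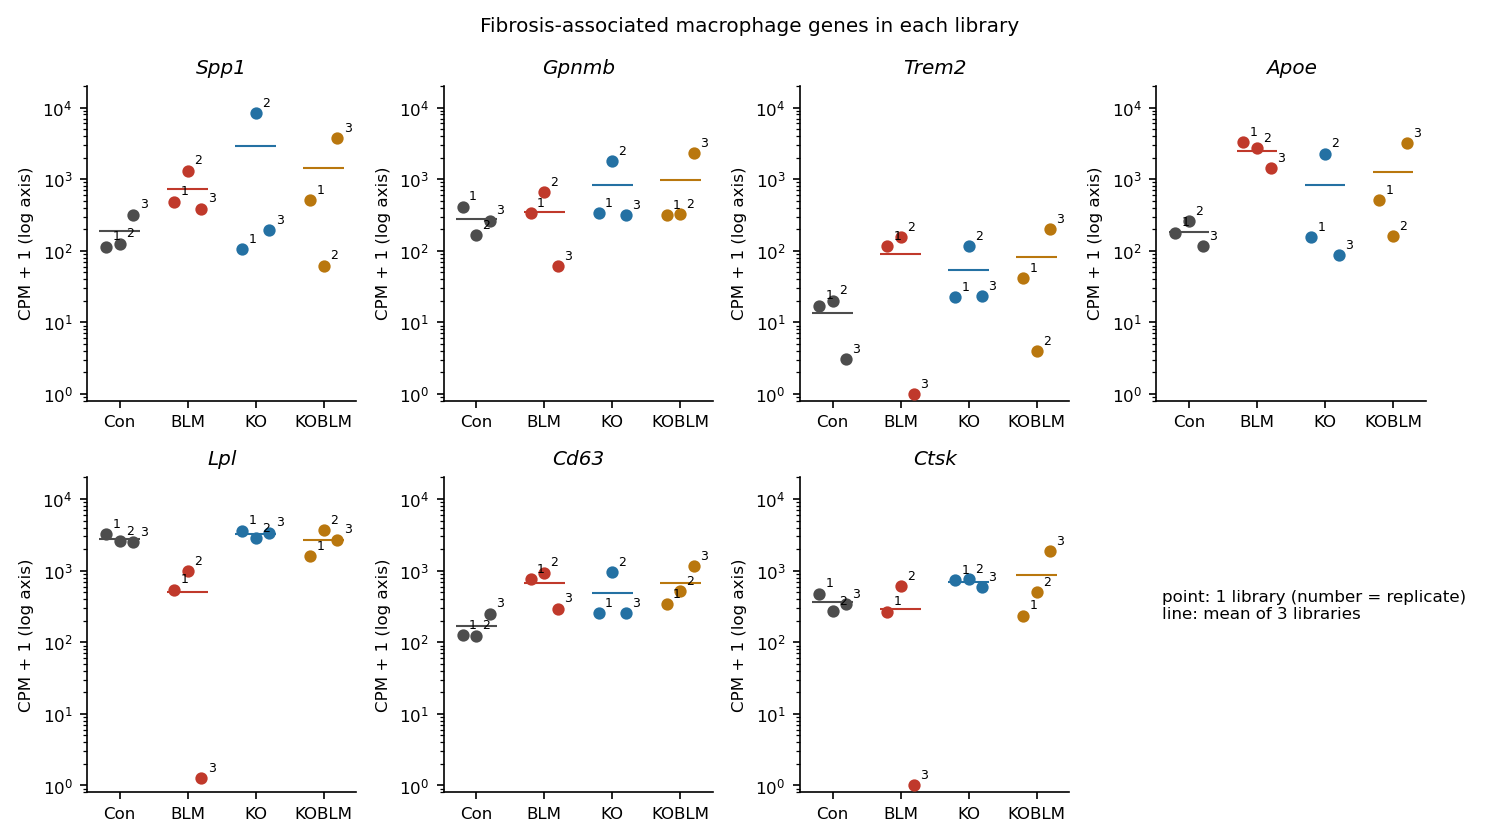
CPM plus 1 of the 7 genes in each of the 12 libraries, on a log axis, with the replicate number beside each point and a line at the mean of the 3 libraries of a group. Apoe is higher in all 3 BLM libraries (1422 to 3325 CPM) than in all 3 Con libraries (114.9 to 259.9 CPM), and KO 2 and KOBLM 3 hold the highest Spp1 values of the series.

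Spp1 encodes osteopontin, a secreted phosphoprotein that binds CD44 and integrins and is the ligand of the set. It had 113.6, 125.0 and 318.9 CPM in Con 1 to 3, and 486.1, 1316 and 386.7 CPM in BLM. In KO it had 103.2, 8300 and 192.4 CPM, and in KOBLM 513.5, 61.3 and 3769 CPM. All BLM libraries lay above all Con libraries, while KO and KOBLM each spanned the ranges of Con and BLM, the highest library of KO standing 80.4 times above its lowest. The group means were 185.8 ± 115.4 CPM in Con, 729.6 ± 510.3 in BLM, 1448 ± 2023 in KOBLM and 2865 ± 4707 in KO (SD, n = 3), and neighbours in that order overlapped, other than Con and BLM. Between BLM and Con the fitted log2 fold change was 2.09 (SE 1.47, p = 0.177, edgeR quasi-likelihood test), and the exact two-sided permutation test on CPM gave p = 0.1, the smallest that 3 against 3 allows. With KO 2 and KOBLM 2 omitted, a nearly equal difference (2.07) met the call rule.

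Trem2, a lipid-sensing surface receptor that signals through Tyrobp, is a defining gene of the set. It had 16.2, 19.1 and 2.07 CPM in Con, 115.8, 153.6 and 0 CPM in BLM, 21.3, 115.1 and 22.3 CPM in KO, and 40.4, 2.99 and 201.5 CPM in KOBLM. BLM 1 and BLM 2 were above every Con library and BLM 3 had no count, which allows up to 0.269 CPM there. The log2 fold change of BLM over Con was 2.98 (SE 1.83, edgeR p = 0.125, exact permutation p on CPM = 0.4). Without BLM 3 it was 3.56 and met the call rule. Gpnmb, a transmembrane glycoprotein of endosomes and of activated macrophages, did not follow that pattern. Its values were 411.5, 163.9 and 263.0 CPM in Con, 335.3, 657.7 and 59.7 CPM in BLM, 337.7, 1806 and 311.3 CPM in KO, and 313.1, 320.8 and 2314 CPM in KOBLM. Within each of KO and KOBLM, 2 libraries lay between 311.3 and 337.7 CPM and a single library stood 5.80 and 7.39 times above the lowest. BLM and Con overlapped, with a log2 fold change of 0.48 (SE 1.0, edgeR p = 0.639, exact permutation p = 0.8) that turned to −0.46 without BLM 2.

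Apoe, the apolipoprotein that carries cholesterol out of lipid-laden macrophages, showed the largest difference of the 7 after bleomycin. It had 178.8, 259.9 and 114.9 CPM in Con and 3325, 2684 and 1422 CPM in BLM, so the lowest BLM library stood above the highest Con library. In KO it had 153.7, 2266 and 85.2 CPM, and in KOBLM 513.6, 158.5 and 3157 CPM. KO 1 and KO 3 lay within or below the range of Con, KO 2 within that of BLM. The log2 fold change of BLM over Con was 3.80 (SE 1.27, p = 0.00971, adjusted p = 0.995 by edgeR with Benjamini-Hochberg adjustment, exact permutation p on CPM = 0.1). It ranged from 3.52 to 4.18 when each library was left out in turn, meeting the call rule each time.

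Lpl, the lipoprotein lipase that releases fatty acids from triglyceride, went the other way. It had 3231, 2587 and 2493 CPM in Con, 542.3, 980.1 and 0.269 CPM in BLM, 3620, 2821 and 3390 CPM in KO, and 1598, 3674 and 2710 CPM in KOBLM. All BLM libraries lay below all libraries of the other 3 groups, which overlapped each other. The BLM 3 value rests on 3 counts, at the limit of detection. The log2 fold change of BLM over Con was −2.29 (SE 1.27, edgeR p = 0.0937, exact permutation p = 0.1), and without BLM 3 it was −1.70 and met the call rule. It also met it without BLM 2 (−3.27).

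Cd63, a tetraspanin of late endosomes and of extracellular vesicles, had 124.5, 122.8 and 251.0 CPM in Con and 758.3, 940.7 and 294.8 CPM in BLM. In KO it had 255.7, 952.0 and 253.1 CPM, and in KOBLM 340.6, 521.1 and 1148 CPM. Con was below each of the other 3 groups with no overlap, narrowly in the case of KO (251.0 CPM in Con 3 against 253.1 in KO 3). The log2 fold change of BLM over Con was 2.11 (SE 0.75, p = 0.0134, adjusted p = 0.995, edgeR; exact permutation p = 0.1), and without BLM 2 it was 1.67 and no longer met the call rule. Ctsk, the collagen-degrading cysteine protease cathepsin K, had 477.3, 270.0 and 337.3 CPM in Con, 267.2, 611.7 and 0 CPM in BLM, 744.8, 753.7 and 588.9 CPM in KO, and 233.9, 502.3 and 1878 CPM in KOBLM. All KO libraries were above all Con libraries, and KO 2 did not stand apart for this gene. BLM and Con overlapped, at a log2 fold change of −0.13 (SE 1.40, edgeR p = 0.928, exact permutation p = 0.8), which was 0.46 without BLM 3 and 0.11 without Con 1.

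The comparison of BLM with Con asks what bleomycin does in mice not labelled p300 knockout. Apoe and Cd63 were called higher, 2 of the 7, where 2.19% of the 13054 tested genes were called higher and 2.08% lower. The CPM of Spp1, Apoe and Cd63 did not overlap between the groups and was higher in BLM, 3 of 7 against 5.32% of all genes, and that of Lpl did not overlap and was lower, 1 of 7 against 11.8%. The median log2 fold change of the 7 was 2.09, against −0.08 over all tested genes. Without BLM 3, Trem2 and Lpl were called as well as Apoe and Cd63, 4 of 7, where 767 of 14084 tested genes (5.45%) were called in either direction, against 558 with all libraries. After adjustment over all genes no gene passed in edgeR, 0% of those tested, while 558 had an unadjusted p under 0.05, and DESeq2 passed 114 genes, none of the 7 among them.

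KOBLM against BLM asks whether the p300 deletion label changes the bleomycin state, and none of the 7 was called. Lpl showed the clearest difference: all KOBLM libraries lay above all BLM libraries, as for 6.04% of tested genes, with a log2 fold change of 2.33 (SE 1.28, p = 0.0892, exact permutation p = 0.1). It met the call rule without BLM 3 (1.74) and without BLM 2 (3.31). Ctsk was at 1.55, Gpnmb at 1.5, Spp1 at 1.06, Cd63 at 0.05, Trem2 at −0.12 and Apoe at −0.86, with p from 0.164 to 0.951. The median of the 7 was 1.06, against 0.10 over all genes, of which 1.39% were called higher, 1.78% lower and 0% after adjustment (413 genes had an unadjusted p under 0.05 in edgeR, and 78 passed adjustment in DESeq2, none of the 7 among them). KOBLM 3 weighed on these values. Without it the median was −0.66, Spp1 was at −1.34, Gpnmb at −0.22 and Cd63 at −0.66, and Apoe was called lower at −2.86. The 95% interval of the Apoe difference with all libraries, −3.32 to 1.60, includes changes in either direction.

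**Figure D2:**
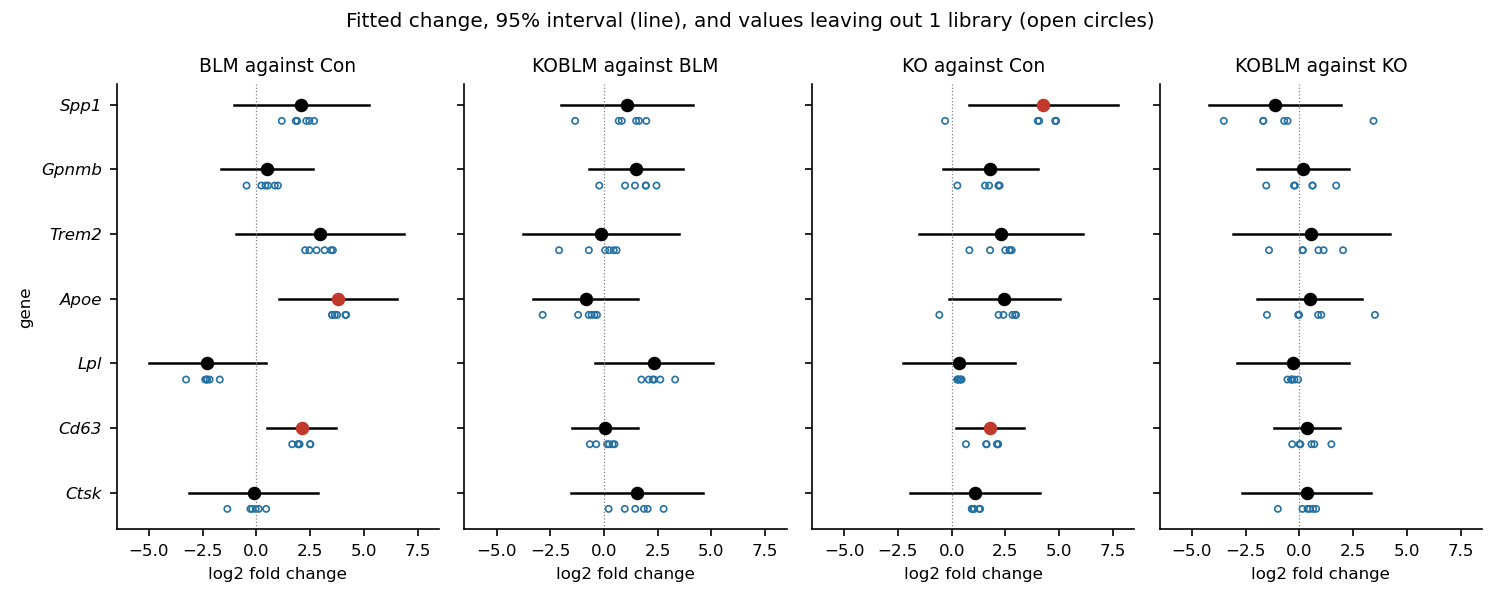
Fitted log2 fold change of each gene in 4 comparisons (filled points, red where called at fold change over 1.5 and unadjusted p under 0.05) with 95% intervals as lines, and the values with 1 library left out as open circles. Apoe in BLM against Con stays between 3.52 and 4.18, whereas Spp1 in KO against Con falls to −0.30 in a single refit, the one without KO 2.

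KO against Con asks what the deletion label does without bleomycin. Spp1 (4.27, SE 1.62, edgeR p = 0.0193, exact permutation p on CPM = 0.7) and Cd63 (1.78, SE 0.74, edgeR p = 0.0302, exact permutation p = 0.1) were called higher, each with an adjusted p of 1. They were 2 of the 7, where 0.536% of tested genes were called higher and 0.904% lower. Trem2, Cd63 and Ctsk did not overlap and were higher in KO, 3 of 7 against 2.18% of all genes, and none of the 7 did so in the lower direction, against 7.56%. Trem2 was at 2.30 (edgeR p = 0.218) and Ctsk at 1.09 (edgeR p = 0.455), both with an exact permutation p of 0.1. Apoe was at 2.45, Gpnmb at 1.80 and Lpl at 0.35, and none of these was called. Both calls were lost without the library labelled KO 2: none of the 7 was then called, beside 88 of 14038 genes (0.627%), Spp1 was at −0.30, Apoe at −0.57 and Cd63 at 0.67, and the median of the 7 was 0.38 in place of 1.80, against −0.09 over all genes. The call of Cd63 was also lost without Con 1 (1.60) and without Con 2 (1.63), and that of Spp1 without Con 1 (4.00). Without KO 1 or KO 3, Apoe was called (2.95 and 3.0). No gene passed adjustment in edgeR, 0%, with 188 at an unadjusted p under 0.05, and DESeq2 passed 80, none of the 7 among them.

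In KOBLM against KO, bleomycin within the deletion label, none of the 7 was called, where 1.16% of tested genes were called higher, 0.529% lower and 0% after adjustment (221 genes at an unadjusted p under 0.05 in edgeR, 57 adjusted in DESeq2). The log2 fold changes ran from −1.12 for Spp1 to 0.56 for Trem2, with a median of 0.34, against 0.08 over all genes. Without the library labelled KO 2, Spp1 (3.45) and Apoe (3.52) were called, beside 118 of 14038 genes (0.841%) called higher, and without KOBLM 3 Apoe was at −1.51 and the median at −1.41. This comparison shares KO with the one before it, and BLM is shared in the same way between the first 2.

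The difference between the bleomycin effects of the 2 genotypes was tested as an interaction. It was −3.31 on the log2 scale for Apoe (SE 1.65), −3.21 for Spp1, −2.42 for Trem2, −1.73 for Cd63, 1.98 for Lpl, 0.46 for Ctsk and −0.30 for Gpnmb. The adjusted p was 0.9999 for each in edgeR, so no difference between genotypes passed the test. None of the 7 was called, against 2.82% of genes in either direction and 0% after adjustment, with 368 genes at an unadjusted p under 0.05 and 85 adjusted in DESeq2. The Apoe value met the call rule without BLM 3 (−3.65), KO 1 (−3.81), KO 3 (−3.85) or KOBLM 3 (−5.30), and was −0.26 without KO 2, where that of Spp1 turned to 1.39. Cd63 met it without BLM 3 (−2.14) or KOBLM 3 (−2.44), Spp1 without KOBLM 3 (−5.60), and Lpl without BLM 3 (1.39).

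Genes of the lipid- and scar-associated macrophage programme other than the 7 were split in their direction after bleomycin. Of 22 listed, 6 were called higher in BLM than in Con and 3 lower, with a median of −0.46. The genes called higher were Arg1 (10.15, arginase of alternatively activated macrophages), Msr1 (4.72, a scavenger receptor), Mmp12 (3.79, macrophage elastase), Pla2g7 (2.48), Ctsl (2.11, cathepsin L) and Fn1 (1.48, fibronectin), as log2 fold changes. Arg1 had 6.29, 0 and 0 CPM in Con and 3736, 2543 and 79.0 CPM in BLM, so its fitted value depends on the prior count. Those called lower were Abcg1 (−3.78, a cholesterol exporter), Cd9 (−2.23, a tetraspanin) and Itgax (−2.20, CD11c, which resident alveolar macrophages carry). Abcg1 fell from 1826, 1141 and 1412 CPM to 94.1, 188.5 and 2.51 CPM, a pattern like that of Lpl. Without BLM 3 the counts were also 6 higher and 3 lower, and over the 6 refits with 1 library left out they ranged from 2 to 6 higher and from 3 to 4 lower. Arg1, Msr1, Abcg1, Cd9 and Itgax were called in all 6, Mmp12 and Pla2g7 in 3, and Ctsl and Fn1 in 2. In KOBLM against BLM, Abcg1, Cd9 and Itgax were called higher, at 2.27, 1.70 and 1.85, and none of the 22 lower; without BLM 3, 4 were higher and 1 lower. Cd9 and Itgax were called in all 6 refits of that comparison and Abcg1 in 3. In KO against Con 6 were called higher (Arg1, Mmp12, Msr1, Pla2g7, Ctsl and Fabp5, a fatty acid carrier, at 1.76) and none without KO 2. None of the 22 was called in KOBLM against KO with all libraries, and without KO 2 Arg1 (6.92), Mmp14 (7.06) and Pla2g7 (2.77) were called higher. The list holds genes that resident macrophages also use.

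**Figure D3:**
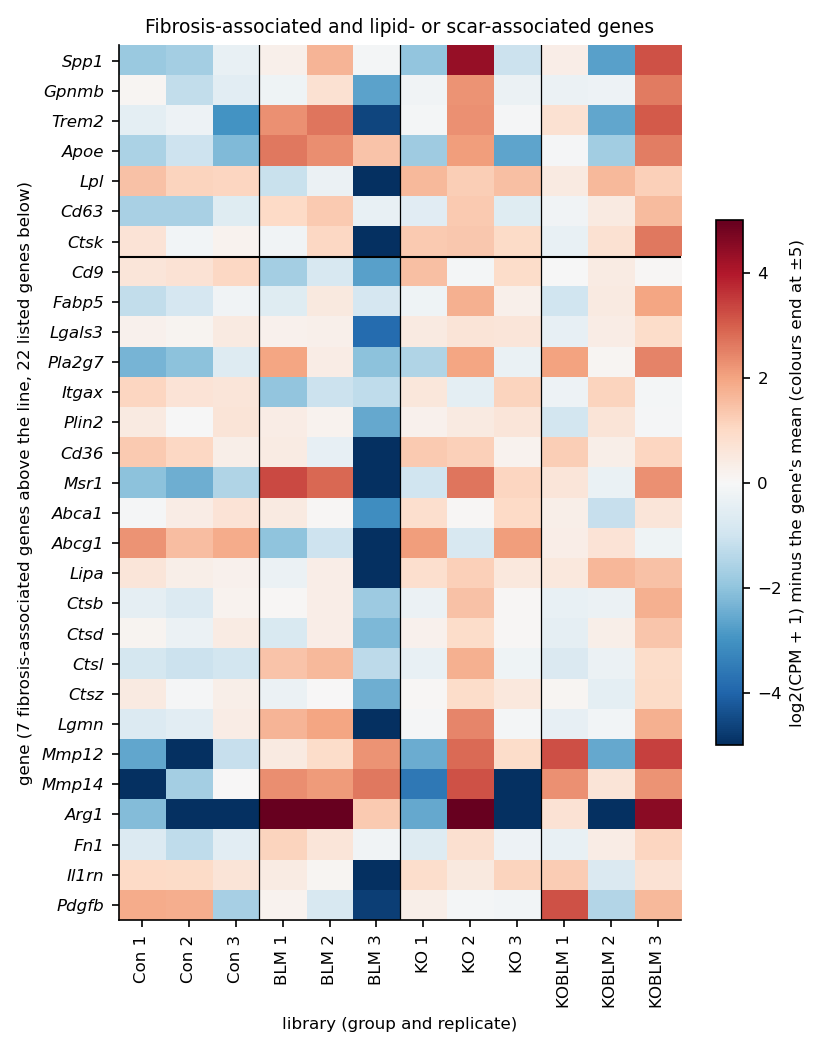
Heat map of log2(CPM + 1) minus each gene's mean over the 12 libraries, with the 7 genes above the line and the 22 other lipid- or scar-associated genes below it. Arg1, Msr1 and Mmp12 are high in KO 2 and KOBLM 3, as Spp1 and Apoe are, and BLM 3 is low for most rows but above the mean for Apoe, Mmp12, Mmp14 and Arg1.

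The partners of the 7 genes mostly did not pass the test. Of 8 tested TREM2 adaptor and signalling genes none was called in BLM against Con, while without BLM 3, where 9 were tested, Hcst (1.94), another adaptor, and Inpp5d (1.18), the phosphatase SHIP1, were called higher. Tyrobp, the adaptor, had 462.4, 289.7 and 1205 CPM in Con and 647.5, 688.7 and 36.8 CPM in BLM. Syk was called higher in KOBLM against BLM (1.36), a call lost in 4 of 6 refits, those without BLM 1, BLM 3, KOBLM 2 or KOBLM 3. Inpp5d was called higher in KO against Con (1.32), a call lost in all 6. Among 7 osteopontin receptors, Cd44 was called lower in BLM (−2.23), also in all 6 refits, and higher in KOBLM than in BLM (1.64), in 2 of 6. The integrin subunits were not called in any of the 4 comparisons. Of 9 tested receptors, cofactors and inhibitors of Apoe and Lpl none was called in any of the 4 with all libraries. Without BLM 3, Apoc2 was called higher in BLM than in Con (6.21). Apoc2, the activator of lipoprotein lipase, had 0, 0.428 and 3.11 CPM in Con and 107.5, 52.9 and 0 CPM in BLM. Of 6 tetraspanins related to Cd63, Cd9 was called lower in BLM, where Cd63 was called higher, a count that stayed the same in the 6 refits. Of 8 cathepsins and cystatins, Ctsl was called higher and Ctsc lower (−1.56) in BLM, and Ctsc was higher in KOBLM than in BLM (1.58). Of 6 refits, these calls held in 2 for Ctsl, 4 for Ctsc in BLM and 4 for Ctsc in KOBLM, and without BLM 3 the count in BLM against Con was 3 higher and 1 lower. Among the candidate regulators, Rxra (−2.77), the partner of PPARγ, and Bhlhe41 (−1.70), a factor of resident alveolar macrophages, were called lower in BLM, in 4 and 1 of 6 refits. Spi1, the gene of PU.1, had 772.0, 482.3 and 521.8 CPM in Con and 412.6, 644.9 and 121.8 CPM in BLM and was not called. Mitf, whose M-box was searched above, had 86.6 to 95.1 CPM in Con and 0 to 67.8 CPM in BLM and was not called either.

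Macrophage markers also differed between libraries, not always in step with the 7 genes. Monocyte-derived markers were highest in BLM 1 and BLM 2 (4546 and 4277 CPM). The sum of the 6 genes other than Lpl was highest in KO 2 and KOBLM 3 (14190 and 12470 CPM). Of 12 resident alveolar macrophage markers, 6 were called lower in BLM than in Con and none higher, and their summed CPM ran from 11990 to 24250 in the Con libraries, from 720.2 to 6430 under BLM, from 7499 to 40400 under KO and from 7316 to 20720 under KOBLM. Of 12 monocyte-derived markers, 4 were called higher in BLM, among them the complement genes C1qa (5.92), C1qb (5.53) and C1qc (6.69), with a summed CPM of 651.1 to 723.9 for Con, 145.3 to 4546 for BLM, 626.4 to 2473 for KO and 621.9 to 2379 for KOBLM. Fibroblast markers summed to 176.3 to 575.6 CPM in Con and 1134 to 1889 in BLM, osteoclast markers, included because Ctsk is best known in osteoclasts, to between 10.0 and 323.6 CPM over the 12 libraries, endothelial markers to between 45.7 and 1366, and T and B cell markers to between 0 and 53.7. In BLM against Con, 2 of 7 tested fibroblast markers and 1 of 4 tested osteoclast markers were called higher, and 2 of 12 ATII markers, 2 of 8 pan-leukocyte markers and 3 of 6 T and B cell markers lower, while none of 6 endothelial markers was called. The T and B cell calls (Cd79a, Cd8a and Ms4a1) rested on 0 to 19.3 CPM in Con, and each held in 1 of 6 refits. Without BLM 3, 9 resident markers were called lower and 7 monocyte-derived markers higher in BLM, 3 fibroblast and 2 osteoclast markers higher, 1 ATII and 1 pan-leukocyte marker higher, 2 of each lower, and 0 of the T and B cell markers. Over the 6 refits the resident markers called lower ranged from 4 to 9 and the monocyte-derived markers called higher from 3 to 7. In KOBLM against BLM, 4 resident markers were called higher (1 to 8 over the refits, the lowest without KOBLM 2) and no monocyte-derived marker was called. The part of macrophage number in the values of the 7 genes was not tested.

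Within each library, the sum of the 7 genes was set against the sum of the 12 resident markers, as the log2 of their ratio with 1 CPM added to each. It was −1.58, −1.76 and −2.68 in Con, 0.13, 0.19 and 1.59 in BLM, −1.83, 1.18 and −3.06 in KO, and −1.04, −1.98 and 0.30 in KOBLM. All BLM libraries were above all Con libraries in this ratio, BLM 3 included, in which both sums were low. The sum of the 7 alone overlapped, at 4553, 3547 and 3780 CPM in Con and 5830, 7344 and 2164 CPM in BLM. The resident sum did not, at 13570, 11990 and 24250 CPM in Con and 5310, 6430 and 720.2 CPM in BLM. The ratio therefore also carries the lower resident markers. Its difference was 2.64 (exact permutation p = 0.1, the smallest possible, adjusted p = 0.4 over the 4 comparisons). Lpl lay lower in BLM and held most of the sum in Con. Over the 6 other genes, a sum chosen after seeing the data, the difference was 4.27 (exact permutation p = 0.1). The difference of KOBLM from BLM was −1.54 (exact p = 0.3, adjusted p = 0.6), with overlapping libraries. KO lay 0.77 above Con (exact p = 0.9) and KOBLM 0.33 above KO (exact p = 0.9), with overlapping libraries and no fixed direction: with 1 library left out, the first ranged from −0.44 to 1.68 and the second from −0.58 to 1.54.

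**Figure D4:**
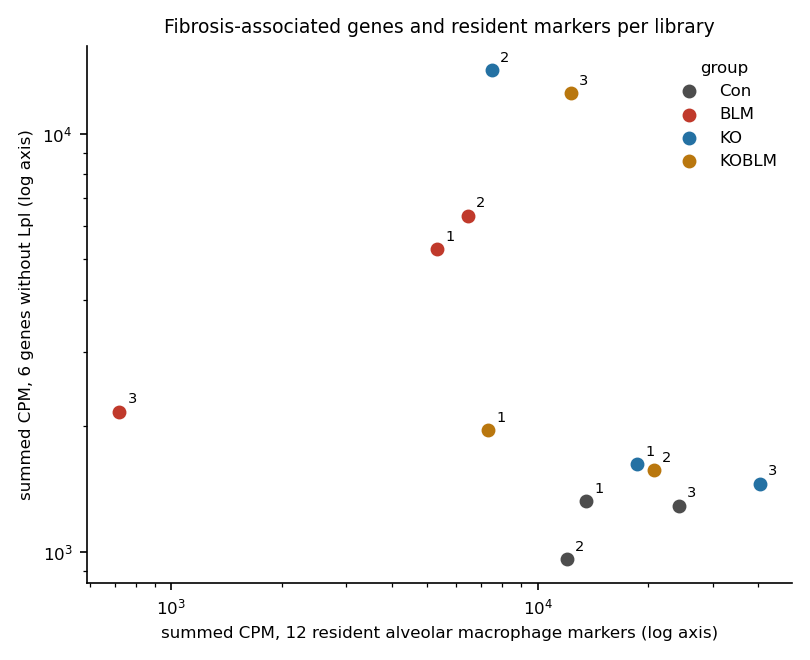
Summed CPM of the 6 genes other than Lpl against summed CPM of 12 resident alveolar macrophage markers, both on log axes, with 1 point per library, the replicate number beside it and the colour giving the group. KO 2 and KOBLM 3 stand at the top, above BLM 1 and BLM 2, and the 3 Con libraries lie near KO 1, KO 3 and KOBLM 2 at the lower right.

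The genes whose log2 CPM followed the mean z-score of the 7 most closely over the 12 libraries were Rilpl2 (r = 0.947), Ctsb (0.946, cathepsin B), Npc2 (0.943, which hands cholesterol out of the lysosome), Msr1 (0.905), Clec4a1, Myo5a, Clec4d, Psmd8, Ctsl and Tes (0.893). Over the 11 libraries without BLM 3 the first 10 were, in order, 2700046G09Rik (0.960), Nxpe5, Mamdc4, Ctsb (0.944), Npc2 (0.932), Drp2, Atp6v1e1, Tmem150c, Psap and Nme4 (0.890). Ctsb and Npc2 stood in both, and 2700046G09Rik, Nxpe5, Mamdc4, Drp2 and Tmem150c had means of 0.735 to 1.68 CPM. These coefficients describe 12 or 11 libraries that share their groups and the marker levels given above, and carry no p.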

How the data were processed

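RNA of sorted CD74+ Ep-CAM+ mouse lung cells was sequenced from 12 mice, 3 in each of Con, BLM, KO and KOBLM, with a 3′ mRNA kit. Per the labels, groups were set by the knockout and treatment fields. The authors deposited raw read counts per gene symbol, 1 file per library. Their processing notes name Bowtie2, edgeR and the mm10 build without versions, and the counting program and annotation were not given in the sources used here.

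Rows sharing a symbol were summed (23282 entries, 23238 symbols) and scaled to the library total as CPM. Genes passing filterByExpr (minimum count 10, minimum total 15) numbered 13054, and all 7 genes passed. Tests used edgeR 4.0.16 (R 4.3.3; TMM, quasi-likelihood, a 4-group model with 8 residual degrees of freedom before moderation), with Benjamini-Hochberg adjustment over all tested genes. A gene was called where it changed more than 1.5-fold and its raw p was under 0.05. edgeR's common dispersion came to 2.08. Single values were tested by two-sided exact permutation (scipy 1.17.1), for which 3 against 3 libraries cannot go below 0.1. Similar genes were ranked by Pearson correlation of log2 CPM (prior count 2). Alternatives were DESeq2 1.42.0, its size factors, library size alone, no filter on low counts, a replicate block, and leaving out each library. The scripts were tested on simulated data.

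All 7 genes are described. From each list the called genes were named, otherwise those with the highest mean CPM, and a few (Apoc2, Mitf) were named after their values were seen. Results for some listed genes are not reported here. The members and lists were chosen with earlier results of these data known. The 3-count limit covers counting error only, whereas the 95% intervals of fold changes come from edgeR standard errors and include the spread between mice. No use of molecular identifiers is stated. Promoters and start sites are from RefSeq on GRCm38.p6 and positions from GENCODE M21.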

Additional observations from a re-analysis of the deposited data

How the results depend on the processing

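Values are given in the order BLM against Con, KOBLM against BLM, KO against Con, KOBLM against KO and interaction, unless named. Scaling by DESeq2 size factors or by library size alone kept the direction of each of the 7 genes in every comparison. Library size alone shifted the median of all genes in KO against Con by −0.12 on the log2 scale, the one shift over 0.1. The cause of the changes below was not tested.

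DESeq2 in place of edgeR called 947 (7.25%), 755 (5.78%), 374 (2.87%), 460 (3.52%) and 625 (4.79%) genes. Among the 7 it called 3, 1, 3, 0 and 1. With no filter on low counts 645 genes were called in KOBLM against BLM, 706 in the interaction, 771 in BLM against Con and 229 in KO against Con. These were 4.41%, 3.69%, 1.31% and 4.04% of 17480 genes in BLM against Con, KOBLM against BLM, KO against Con and the interaction, where 5, 1, 4 and 2 of the 7 were called. Requiring an adjusted p under 0.05 left 0 genes by edgeR in each.

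Same-numbered libraries did not deviate together across groups (correlations of −0.11 to 0.10, with 4 of 12 libraries closest to their own number). A shared run or batch was not tested by these correlations. Con 3, BLM 3, KO 3 and KOBLM 2 each had the highest total of their group and the fewest genes with a count (10246, 6847, 8790 and 9018). With the replicate block, 262 genes were called in KOBLM against BLM, 100 in KOBLM against KO and 242 in the interaction. In KO against Con 100 genes (0.766%) and 0 of the 7 were called. In that paired fit Trem2 was at 1.19 in KOBLM against BLM and Gpnmb at 0.52 in the interaction.

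KO 2 and KOBLM 2 were omitted together, a choice made after seeing the data. Of 13969 tested genes, 224 (1.6%) were then called in KOBLM against BLM and 116 (0.83%) in KO against Con. KOBLM against KO had 185 called (1.32%). Of the 7, 0 were called in KO against Con (median 0.38, Spp1 −0.30, Apoe −0.57) and 2 in KOBLM against KO (median 2.15, Spp1 4.02). Trem2 was at 0.47 in KOBLM against BLM, and the interaction was 1.95 for Spp1, 1.69 for Gpnmb and 0.27 for Apoe. The ratio to resident markers was then −0.44 in KO against Con.

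Leaving out 1 library at a time, genes called ranged from 292 to 767, 236 to 471, 88 to 446, 105 to 402 and 332 to 672. These were 2.08% to 5.45%, 1.67% to 3.34%, 0.627% to 3.2%, 0.741% to 2.88% and 2.36% to 4.82% of the tested genes. The number called among the 7 ranged from 2 to 4, 0 to 1, 0 to 3, 0 to 2 and 0 to 3. Their median ranged from −0.66 to 1.97 in KOBLM against BLM, 0.38 to 2.23 in KO against Con and −1.41 to 1.72 in KOBLM against KO. In BLM against Con, Gpnmb ranged from −0.46 to 1.0 and Ctsk from −1.35 to 0.46. In KOBLM against BLM, Spp1 ranged from −1.34 to 1.97, Gpnmb from −0.22 to 2.44, Trem2 from −2.09 to 0.59 and Cd63 from −0.66 to 0.49. In KO against Con, Spp1 ranged from −0.30 to 4.86 and Apoe from −0.57 to 3.0. In KOBLM against KO, Spp1 ranged from −3.51 to 3.45, Gpnmb from −1.54 to 1.72, Trem2 from −1.41 to 2.03, Apoe from −1.51 to 3.52, Cd63 from −0.33 to 1.49 and Ctsk from −1.0 to 0.78. The interaction ranged from −5.60 to 1.39 for Spp1, −2.02 to 1.26 for Gpnmb and −0.87 to 1.69 for Ctsk. With all libraries, the ratio to resident markers had the same direction in the 4 comparisons over the 6 genes without Lpl as over the 7. The sum of 6 was chosen after seeing the data. With 1 library left out, the ratio over the 7 genes ranged from −0.44 to 1.68 in KO against Con and −0.58 to 1.54 in KOBLM against KO. Lpl kept its direction in every comparison and alternative. Trem2, Lpl and Ctsk stood at 0 to 3 counts in BLM 3. That library had the highest total of the series (11153154 counts) and the fewest genes with a count (6847).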
